A study of Mus musculus with 14 samples.

Results

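The colony-stimulating factors and their receptors are a set of 8 genes chosen by name among the 55487 genes of the count tables, with earlier results of these data known. Csf1, Csf2 and Csf3 encode the 3 ligands M-CSF, GM-CSF and G-CSF, and Csf1r, Csf2ra, Csf2rb, Csf2rb2 and Csf3r encode 5 receptor chains. They were followed in 14 bulk RNA-seq libraries of mouse bone marrow cells that had been exposed to PBS or to interleukin 1β (IL-1β). Stem cell-enriched LSK cells (Lin-Sca1+c-kit+) and the myeloid progenitors termed LK or MP(LK) (Lin-c-kit+) were sorted from lethally irradiated C57BL/6 recipients of bone marrow from Mx1Cre; Jak2VF/+ mice, so PBS and IL-1β samples alike carried a heterozygous Jak2V617F allele, the driver mutation of myeloproliferative neoplasms. Mx1Cre is induced in blood cells and other interferon-responsive cells by pI-pC, and recipients can keep some host cells. These recipients were injected with PBS (3 LSK and 3 LK libraries) or with 0.5 μg IL-1β per dose (2 LSK and 2 LK libraries) 3 times a week for 16 weeks. Cultures labelled MSC (mesenchymal stromal cells) were raised for 21 days from marrow of wild-type C57BL/6 mice and then received PBS (2 libraries) or 5 ng/ml IL-1β (2 libraries) for 72 h.

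M-CSF, made by stromal cells among others, acts through the receptor tyrosine kinase encoded by Csf1r and maintains monocytes and macrophages. GM-CSF binds an α chain encoded by Csf2ra that signals with the common β chain encoded by Csf2rb, a chain that the receptors for IL-3 and IL-5 also use, while the mouse gene Csf2rb2 encodes a further β chain specific for IL-3. G-CSF acts through a homodimer of the Csf3r product and drives granulocyte production, and the GM-CSF and G-CSF receptors have no kinase of their own and signal through JAK2, the kinase that is mutated in these mice.

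Most of the genes lie apart in the genome (GRCm38): Csf1 on chromosome 3 (107741048-107760469), Csf2 and Csf3 on chromosome 11 (54247271-54249667 and 98701263-98703629), Csf3r on chromosome 4 (126024550-126044440) and Csf2ra on chromosome 19 (61223957-61228429). Csf2rb2 (78282507-78305721, minus strand) and Csf2rb (78325752-78353847, plus strand) stand head to head on chromosome 15 with 20030 bases between them. These β chain genes are near copies. Of the 50-base words in their transcripts, 892 are shared, which is 12.3% of those of Csf2rb and 18.4% of those of Csf2rb2, so read pairs that match both could be lost from either gene and their levels are less certain than those of the others. Csf1r, Csf2rb and Csf2rb2 each overlap 1 microRNA gene on their own strand.

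The sequence just upstream of the start site is given for Csf1, Csf2rb2 and Csf3r, which were called in the LK comparison described further on and whose windows hold a match to a searched motif. Windows were taken from RefSeq (GRCm38.p6), are written 5′ to 3′ on the gene's strand, end at the last base before the start of the gene, and show the matches in capitals. The minus-strand window of Csf1 is chr3:107760470-107760719, that of Csf2rb2, also on the minus strand, is chr15:78305722-78305971, and the plus-strand window of Csf3r is chr4:126024409-126024549.
Csf1: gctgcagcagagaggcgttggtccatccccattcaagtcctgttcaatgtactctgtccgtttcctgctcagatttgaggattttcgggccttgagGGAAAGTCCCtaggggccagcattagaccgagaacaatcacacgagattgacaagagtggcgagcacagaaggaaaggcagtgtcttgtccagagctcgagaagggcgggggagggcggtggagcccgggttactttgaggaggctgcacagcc
Csf2rb2: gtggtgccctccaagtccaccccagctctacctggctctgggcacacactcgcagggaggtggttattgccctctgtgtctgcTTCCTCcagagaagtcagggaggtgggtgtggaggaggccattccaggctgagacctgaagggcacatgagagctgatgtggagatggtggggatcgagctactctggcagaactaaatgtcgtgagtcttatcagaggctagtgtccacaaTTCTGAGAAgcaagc
Csf3r: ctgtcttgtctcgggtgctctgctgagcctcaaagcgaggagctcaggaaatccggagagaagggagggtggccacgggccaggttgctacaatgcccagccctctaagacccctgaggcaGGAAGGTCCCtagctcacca
Both strands were searched for the PU.1 core GAGGAA, the AP-1 site TGANTCA, the C/EBP site TTGCNNAA, the STAT-binding GAS element TTCNNNGAA and the NF-κB site, which is given by its name alone. None of the matches overlapped another. The capitals in Csf1 and in Csf3r are matches to the NF-κB site, which 7.25% of all 32851 windows of the length used for Csf1 and 3.85% of those of the length used for Csf3r also held. The capitals in Csf2rb2 are first a match to the PU.1 core, found in 23.3% of all windows, and then a match to the GAS element, found in 7.02%. The window of Csf2ra held no match to any of the 5 motifs. These matches describe letters and were not tested as binding sites.

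Library totals ran from 4393233 to 30871055 counted read pairs. Among LSK and LK cells the IL-1β libraries had fewer read pairs than any PBS library of those cells, and depth cannot be told apart from treatment there, whereas in MSC cultures the deepest library was an IL-1β library. LSK PBS replicate 2 stood apart from its group: 25.1% and 26.3% of genes differed by more than 2-fold between it and the other PBS libraries, against 7.58% between those others and 2.23% to 12.8% between libraries of the other groups. Sorted cells matched their labels, since all 9 stem cell markers, among them the gate genes Ly6a (Sca1) and Kit, were higher in LSK than in LK cells under PBS and all 10 erythroid markers were lower. Cultures labelled MSC did not match theirs as well. The median of 13 macrophage markers was 654 and 766 CPM (counts scaled to a common library size) in the PBS cultures, against 42.8 and 60.2 CPM for 12 mesenchymal markers. Of these 12, Lepr alone had no counts in either PBS culture, but Lum had 0 and 4.17 CPM and Nt5e a mean of 0.280 CPM. The collagen genes Col1a1 and Col1a2 had means of 610 ± 289 and 849 ± 311 CPM (SD, n = 2), so the cultures held transcripts of both cell types. In bulk libraries fewer cells of a type and less RNA per cell cannot be told apart. P-values measure the spread between libraries, and nothing in the labels says how many animals a library or a culture drew on.

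Csf1 was by far the most abundant ligand, and its direction differed between the stromal cultures and the progenitors. In MSC cultures Csf1 stood at 247 and 198 CPM with PBS and at 123 and 119 CPM with IL-1β. Both IL-1β cultures were below both PBS cultures, and Csf1 fell by 0.87 ± 0.14 on the log2 scale (SE; edgeR quasi-likelihood test, adjusted p = 0.0175). Genes are termed called at an adjusted p under 0.05 together with a log2 fold change beyond 0.5 in either direction, and 11.4% of the 13239 genes tested in MSC cultures were called, 945 higher and 570 lower (817 higher and 831 lower with upper-quartile scaling, under which the members kept their directions). Of the 12 mesenchymal markers, 10 passed the filter on low counts and 1 was called, Dcn, which encodes the matrix proteoglycan decorin and rose by 1.60 ± 0.16. Their summed level was 1376 to 2510 CPM with PBS and 2708 to 3031 CPM with IL-1β. Their median overlapped, at 42.8 to 60.2 CPM with PBS and 52.7 to 58.3 CPM with IL-1β. Within the sum, Col1a1 went from a mean of 610 CPM to 1199 CPM and was not called. Macrophage markers, given beside Csf1r further on, rose in their sum. The part of these cell types in the fall of Csf1 was not tested. In LK cells Csf1 was at 7.71, 6.89 and 6.87 CPM with PBS and at 40.3 and 26.8 CPM with IL-1β. Every IL-1β library stood above every PBS library, the rise was 2.23 ± 0.22 on the log2 scale, and the adjusted p was 0.00138, where 9.34% of 12835 genes were called. In LSK cells the PBS libraries had 8.41, 9.56 and 9.13 CPM of Csf1 and the IL-1β libraries 11.8 and 11.7 CPM. Here the groups did not overlap either, but the log2 difference of 0.38 ± 0.40 was not called (adjusted p = 0.644). The rise in LK cells left Csf1 below its level in MSC cultures. Mean Csf1 was 33.5 ± 9.54 CPM (SD, n = 2) in IL-1β LK cells and 121 ± 2.94 CPM (SD, n = 2) in IL-1β MSC cultures.

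Transcripts of GM-CSF and G-CSF were found in IL-1β-treated MSC cultures and in no other group. Csf2 had 11 and 4 counts in the IL-1β cultures, or 0.361 and 0.353 CPM, and 0 counts in the 12 other libraries. Csf3 had 20 and 17 counts in the IL-1β cultures, or 0.656 and 1.50 CPM, and again 0 counts elsewhere. Against a floor of 3 counts over both PBS cultures, equal to 0.156 CPM, the pooled IL-1β level was 2.30-fold higher for Csf2 and 5.68-fold higher for Csf3. These ratios make no allowance for counting error in the IL-1β cultures, so they are not lower bounds. In LSK and LK cells the same floor, per group, allowed levels of up to 0.0689 and 0.0652 CPM with PBS and of up to 0.245 and 0.218 CPM with IL-1β, so lower levels were not detectable at this depth. These floors cover counting error only. Both genes were too sparse for the filter on low counts. Without that filter Csf3 was called in MSC cultures (adjusted p = 0.00195) and Csf2 was not (adjusted p = 0.126), where 2354 of all genes were called. When 10 reads were required in 2 or more libraries Csf3 had an adjusted p of 0.0773. Both genes entered these fits through the IL-1β cultures alone, where all their counts lie. These p-values therefore add no support beyond the counts.

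**Figure D1:**
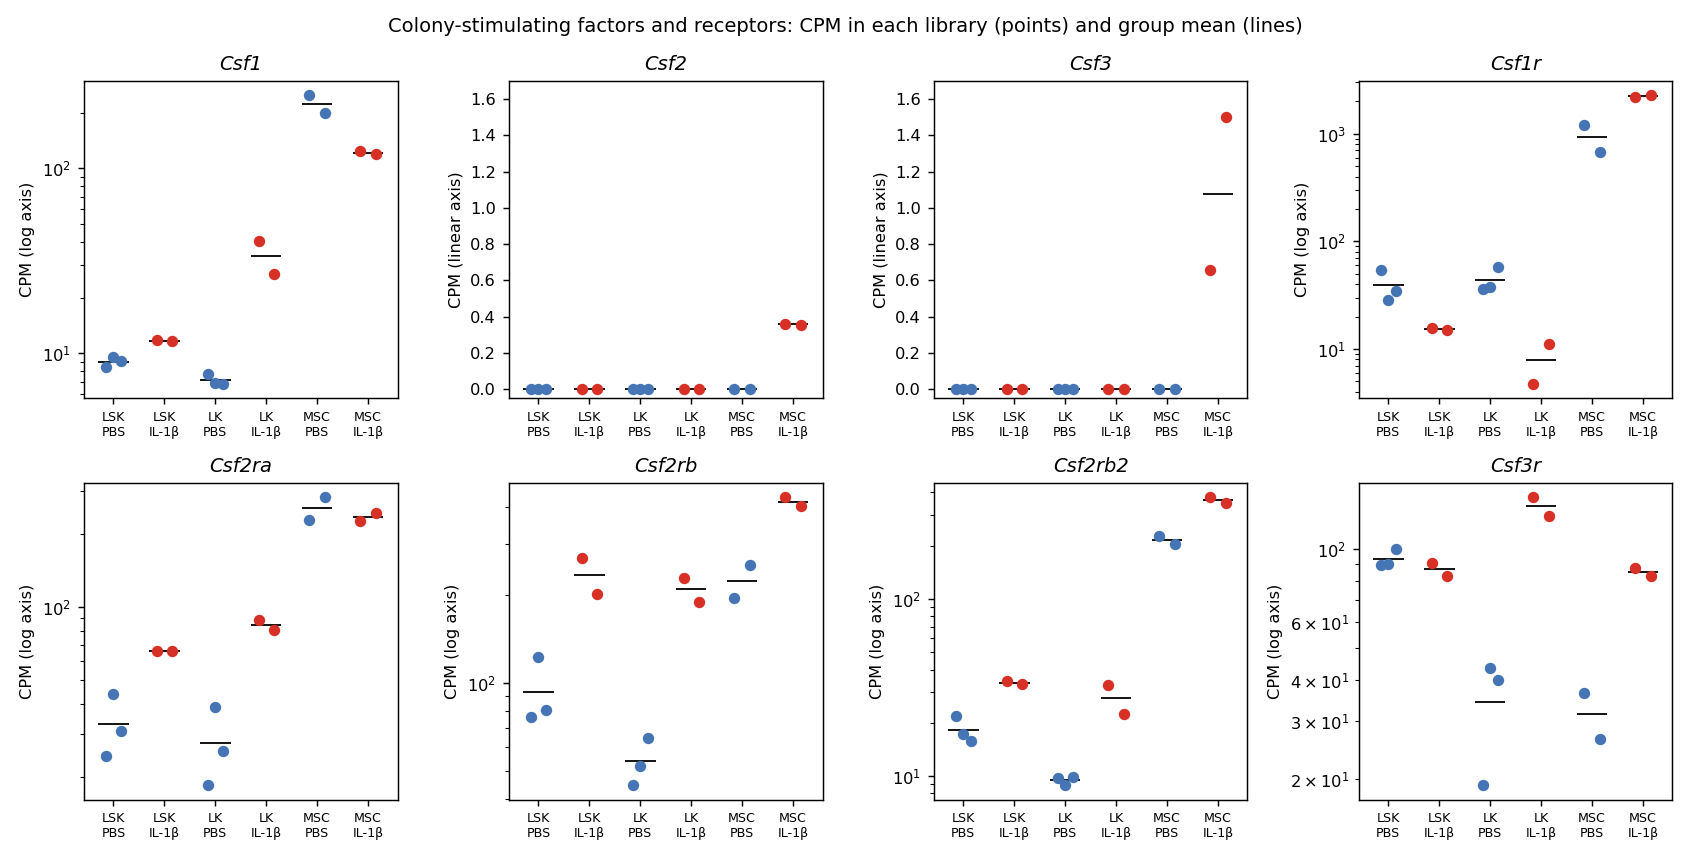
CPM of each of the 8 genes in each library (points, blue for PBS and red for IL-1β) with the group mean as a line; the y axis is logarithmic except for Csf2 and Csf3. Csf2 and Csf3 lie at 0 outside the IL-1β MSC cultures, and Csf1 runs from 6.87 CPM in an LK PBS library to 247 CPM in an MSC PBS library.

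Csf1r, the M-CSF receptor, lies on chromosome 18 (61100598-61132149), and it fell in LK cells and rose in MSC cultures. LK cells had 36.2, 37.5 and 58.2 CPM of Csf1r with PBS and 4.77 and 11.1 CPM with IL-1β. The groups were far apart, and Csf1r fell by 2.49 ± 0.40 on the log2 scale (adjusted p = 0.0135). LSK cells had 53.7, 28.7 and 34.8 CPM with PBS and 15.7 and 14.9 CPM with IL-1β. The groups again did not overlap, but the log2 difference of -1.35 ± 0.36 was not called (adjusted p = 0.111). MSC cultures had 1193 and 683 CPM with PBS and 2184 and 2268 CPM with IL-1β. The rise of 1.25 ± 0.27 was called (adjusted p = 0.0431). Macrophage markers moved with it: 8 of 13 were called higher and none lower, where 7.14% of all genes tested were called higher. Cd68, a lysosomal glycoprotein gene, was the only one with a negative log2 difference, -0.47 ± 0.19, which was not called though its groups did not overlap. The summed level of the 13 was 13451 to 17443 CPM with PBS and 33330 to 34250 CPM with IL-1β, and their median went from 654 and 766 CPM to 867 and 1011 CPM. Most of the rise of the sum came from Lyz2, the lysozyme gene, at 7133 and 4803 CPM with PBS and 19873 and 20803 CPM with IL-1β. Without it the other 12 summed to 10310 and 8648 CPM with PBS and to 13458 and 13447 CPM with IL-1β. Set against the sum of all 13, Csf1r came to 6.84% and 5.08% in the PBS cultures and to 6.55% and 6.62% in the IL-1β cultures, values that overlap. Set against the 12 without Lyz2, it came to 11.6% and 7.90% in the PBS cultures against 16.2% and 16.9% in the IL-1β cultures, and the groups no longer overlapped, so the overlap rested on that gene. The part of the macrophage genes in the rise of Csf1r was not tested.

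The GM-CSF receptor chains rose together in LK cells. Csf2ra, the α chain, had 18.4, 38.8 and 25.6 CPM in LK cells with PBS and 88.1 and 80.0 CPM with IL-1β. The rise was 1.60 ± 0.29 on the log2 scale (adjusted p = 0.0197). Csf2rb, the shared β chain, had 44.5, 52.0 and 64.6 CPM with PBS and 229 and 189 CPM with IL-1β. Its rise of 1.96 ± 0.16 had the lowest adjusted p of the 8 genes in any comparison, 0.00104. Csf2rb2, the β chain for IL-3, had 9.77, 8.90 and 9.87 CPM with PBS and 32.6 and 22.5 CPM with IL-1β. It rose by 1.54 ± 0.21 (adjusted p = 0.00481), and for all 3 chains every IL-1β library lay above every PBS library.

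In LSK cells the same chains were higher with IL-1β in every library, yet none was called. Csf2ra had 24.4, 43.9 and 30.9 CPM with PBS against 65.6 and 66.2 CPM, a log2 difference of 1.00 ± 0.30 (adjusted p = 0.142). Csf2rb had 76.4, 123 and 80.7 CPM against 267 and 201 CPM, a difference of 1.33 ± 0.28 (adjusted p = 0.0720). Csf2rb2 had 22.0, 17.2 and 15.8 CPM against 34.4 and 33.2 CPM, a difference of 0.88 ± 0.30 (adjusted p = 0.185). The PBS library with the highest Csf2ra and Csf2rb was replicate 2, the library that stood apart. All 6 tested genes but Csf3r had groups that did not overlap in LSK cells, against 39.6% of all genes tested there. Without replicate 2 both chains were called, with log2 differences of 1.27 (adjusted p = 0.0408) and 1.60 (adjusted p = 0.0316), and so was Csf1r, at -1.51 (adjusted p = 0.0482). Of all genes 480 were called there, against 83 with that library kept.

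In MSC cultures the β chains rose while the α chain was not called. Csf2rb had 195 and 254 CPM with PBS and 433 and 403 CPM with IL-1β, a rise of 0.90 ± 0.15 (adjusted p = 0.0220). Csf2rb2 had 227 and 205 CPM with PBS and 376 and 350 CPM with IL-1β, a rise of 0.75 ± 0.11 (adjusted p = 0.0157). Csf2ra had 229 and 283 CPM against 226 and 244 CPM, with overlapping groups and a log2 difference of -0.12 ± 0.14 (adjusted p = 0.593). As a percentage of the summed macrophage markers, Csf2rb was 1.12% and 1.89% in the PBS cultures against 1.30% and 1.18% in the IL-1β cultures, so that on this scale its groups overlapped. Csf2rb2 was 1.30% and 1.53% in the PBS cultures and lower, at 1.13% and 1.02%, in the IL-1β cultures. Both patterns depended on Lyz2. Against the 12 other macrophage markers Csf2rb was 1.89% and 2.93% in the PBS cultures against 3.22% and 3.00% in the IL-1β cultures. Csf2rb2 was 2.20% and 2.38% in the PBS cultures against 2.80% and 2.61% in the IL-1β cultures, so that both chains were then higher in each IL-1β culture than in either PBS culture. Csf2ra was lower in the IL-1β cultures on both scales. It was 1.31% and 2.11% with PBS against 0.679% and 0.714% with IL-1β for all 13 markers. Without Lyz2 it was 2.22% and 3.28% against 1.68% and 1.82%. The part of the macrophage genes in these shares was not tested.

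Csf3r, the G-CSF receptor, rose in LK cells and in MSC cultures and was not called in LSK cells. In LK cells it had 19.2, 43.4 and 40.1 CPM with PBS and 144 and 126 CPM with IL-1β. It rose by 1.97 ± 0.33 on the log2 scale (adjusted p = 0.0218), with no overlap. In LSK cells it had 89.8, 90.3 and 100.3 CPM with PBS and 90.9 and 82.8 CPM with IL-1β. These groups overlapped, and the log2 difference was -0.11 ± 0.23 (adjusted p = 0.837). In MSC cultures Csf3r had 36.5 and 26.5 CPM with PBS and 87.5 and 82.6 CPM with IL-1β, a rise of 1.45 ± 0.17 (adjusted p = 0.00789). As a percentage of the summed macrophage markers it was 0.209% and 0.197% in the PBS cultures and 0.263% and 0.241% in the IL-1β cultures, which thus lay above the PBS cultures on this scale too. Without Lyz2 in the sum it was 0.354% and 0.307% against 0.650% and 0.614%, again with no overlap.

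**Figure D2:**
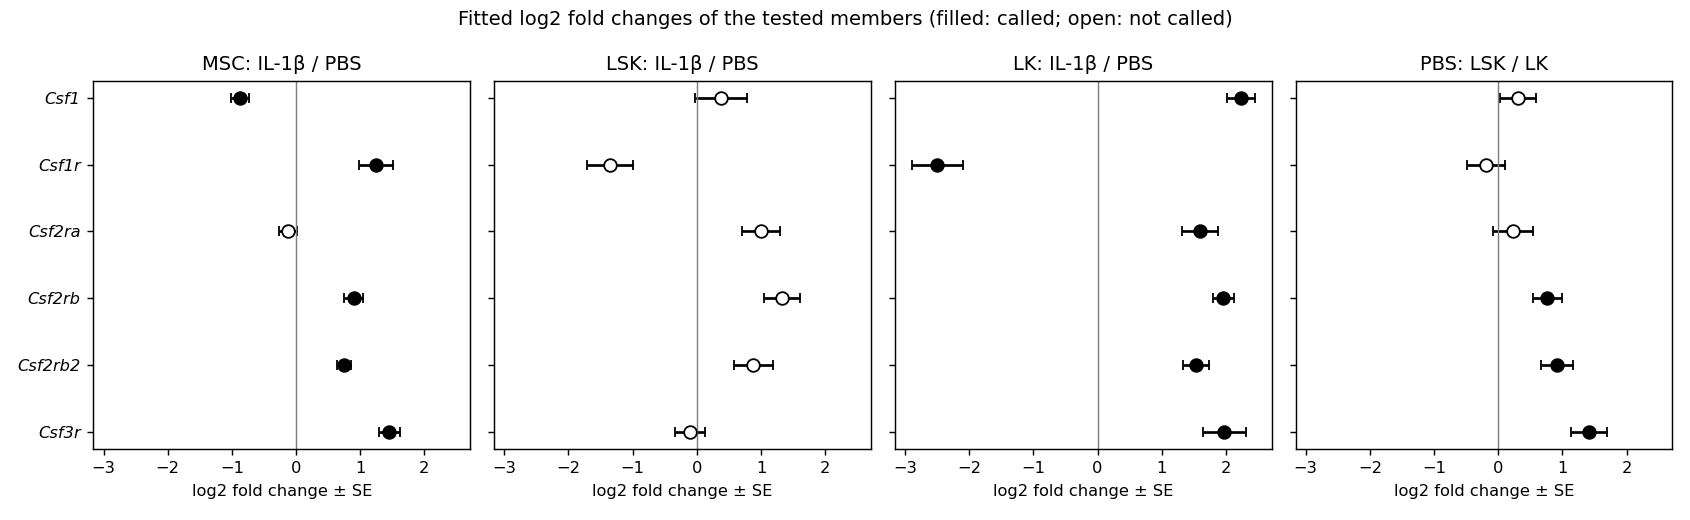
Log2 fold changes of the 6 tested genes with their standard errors in 4 comparisons, IL-1β over PBS in MSC cultures, LSK and LK cells, and LSK over LK cells under PBS; filled points were called and open points were not. All 6 points are filled in LK cells and none in LSK cells, and Csf1r is the only gene to the left of 0 in LK cells.

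Counted over the set, 6 of the 8 genes passed the filter on low counts in each population. In LK cells all 6 were called, 5 higher and Csf1r lower, where 9.34% of all genes were called, with a median log2 fold change of 1.78 against -0.03 over all genes tested. Their groups did not overlap for any of the 6, as was the case for 45.7% of all genes. In MSC cultures 5 were called, 4 higher and Csf1 lower, where 11.4% of all genes were called, with a median of 0.82 against 0.00 over all genes. These 5 also had groups that did not overlap (61.2% of all genes). Leaving out either IL-1β culture left 1 in that group and ended these calls, as it did most calls over all genes. Over all single cultures left out, log2 fold changes ran from -1.02 to -0.70 for Csf1 and from 0.90 to 1.71 for Csf1r. They ran from 0.73 to 1.11 for Csf2rb, 0.69 to 0.83 for Csf2rb2 and 1.23 to 1.69 for Csf3r. In LSK cells edgeR called 0 of the 6, where 0.632% of 13132 genes were called. At an unadjusted p under 0.05 it was 4 of 6, a share that was not computed over all genes. DESeq2 called 3 (Csf1r, Csf2ra and Csf2rb), where it called 905 of all genes. Limma-voom called 0, where it called 21 of all genes. In LK cells, leaving out either IL-1β library left 1 in that group and ended most calls over all genes. Those of Csf2ra and Csf3r were lost in both cases, and those of Csf1r and Csf2rb2 without the first library. Leaving out PBS replicate 3 also ended the calls of Csf2ra and Csf3r, although 2409 of all genes were then called, against 1199 with it kept. Over all single LK libraries left out, log2 fold changes ran from 1.89 to 2.501 for Csf1 and from -3.19 to -1.999 for Csf1r. They ran from 1.39 to 1.93 for Csf2ra, 1.81 to 2.12 for Csf2rb, 1.23 to 1.78 for Csf2rb2 and 1.697 to 2.18 for Csf3r.

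Whether LSK and LK cells responded differently was tested as an interaction over their 10 libraries, in which 0.0289% of 13839 genes were called. None of the 6 was called by edgeR, and 2 had an unadjusted p under 0.05, a share not computed over all genes. DESeq2 called those 2, where it called 332 of all genes. For Csf3r the LSK response was lower than the LK response by 2.12 ± 0.40 on the log2 scale (unadjusted p = 0.000168, adjusted p = 0.104). For Csf1 it was lower by 1.89 ± 0.39 (unadjusted p = 0.000362, adjusted p = 0.129). Without LSK PBS replicate 2 both passed, with adjusted p of 0.0393 for Csf3r and 0.0391 for Csf1, where 336 of all genes were called. Without LK PBS replicate 2 neither passed, and 0 of all genes were called. Over all single libraries left out, the difference ran from -2.32 to -1.83 for Csf3r and from -2.12 to -1.52 for Csf1. For the other 4 the difference between the responses ran from -0.69 for Csf2rb2 to 1.09 for Csf1r, with standard errors of 0.33 to 0.54.

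Under PBS alone, LSK cells held more Csf3r and more of both β chains than LK cells did. Csf3r was higher by 1.42 ± 0.28 (adjusted p = 0.00631), Csf2rb2 by 0.92 ± 0.25 (adjusted p = 0.0230) and Csf2rb by 0.76 ± 0.23 (adjusted p = 0.0326) on the log2 scale, and for these 3 and for Csf1 the populations did not overlap (50.4% of all genes). Of all 12737 genes tested 31.2% were called, so that 3 of 6 is read against a high background. Csf1, Csf1r and Csf2ra were not called, with log2 differences of 0.31 ± 0.28, -0.20 ± 0.29 and 0.22 ± 0.31. Leaving out LK PBS replicate 1 or 2 ended the calls of both β chains, leaving out LSK PBS replicate 1 or LK PBS replicate 3 ended that of Csf2rb2, and Csf3r was called each time.

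The order of the genes was compared per length, as CPM divided by the length of the exons in kilobases. In PBS LSK cells Csf3r led with 25.9 ± 1.63 CPM per kb (SD, n = 3), above Csf2rb and Csf2ra with 12.8 ± 3.51 and 11.5 ± 3.46, which overlapped. Csf1r followed with 6.77 ± 2.25, Csf2rb2 with 3.87 ± 0.687 and Csf1 with 1.71 ± 0.110. In PBS LK cells Csf2ra, Csf3r, Csf1r and Csf2rb lay between 9.62 and 7.38 CPM per kb on average and were not separated beyond their spread, with Csf2rb2 at 2.01 ± 0.114 and Csf1 at 1.35 ± 0.0907. In IL-1β LK cells these 4 receptor genes were spread out. Csf3r led with 37.4 ± 3.55 CPM per kb (SD, n = 2), Csf2ra and Csf2rb overlapped at 29.3 ± 1.99 and 28.7 ± 3.83, and Csf1r was last of all tested genes with 1.37 ± 0.771. In IL-1β LSK cells Csf2rb led with 32.1 ± 6.42, Csf3r and Csf2ra overlapped at 24.1 ± 1.59 and 23.0 ± 0.148, and Csf1r was at 2.65 ± 0.101 CPM per kb.

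The MSC cultures had another order. With PBS, Csf1r came first at 163 ± 62.5 CPM per kb (SD, n = 2), then Csf2ra at 89.2 ± 13.4, Csf2rb2 and Csf1 at 45.6 ± 3.18 and 42.1 ± 6.64, which overlapped, Csf2rb at 30.8 ± 5.72 and Csf3r at 8.73 ± 1.96. With IL-1β, Csf1r reached 385 ± 10.2 CPM per kb, and Csf3r and Csf1 met at 23.6 ± 0.965 and 22.9 ± 0.557. The β chains were also balanced differently. Csf2rb made up 35.9% to 44.6% of both β chains per length in the 4 MSC cultures and 69.3% to 84.6% in the 10 LSK and LK libraries.

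The balance of G-CSF to M-CSF receptor transcripts separated the groups of LK cells. Csf3r over Csf1r per length was 0.846, 1.85 and 1.10 in PBS LK cells and 48.3 and 18.2 in IL-1β LK cells. LSK cells had ratios of 2.68, 5.03 and 4.61 in the PBS group against 9.26 and 8.91 in the IL-1β group. In both populations every IL-1β library lay above every PBS library; in LK cells both genes were called, in opposite directions, and in LSK cells neither was. In the MSC cultures the ratio stayed between 0.0489 and 0.0641 in all 4 libraries, with overlapping groups.

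**Figure D3:**
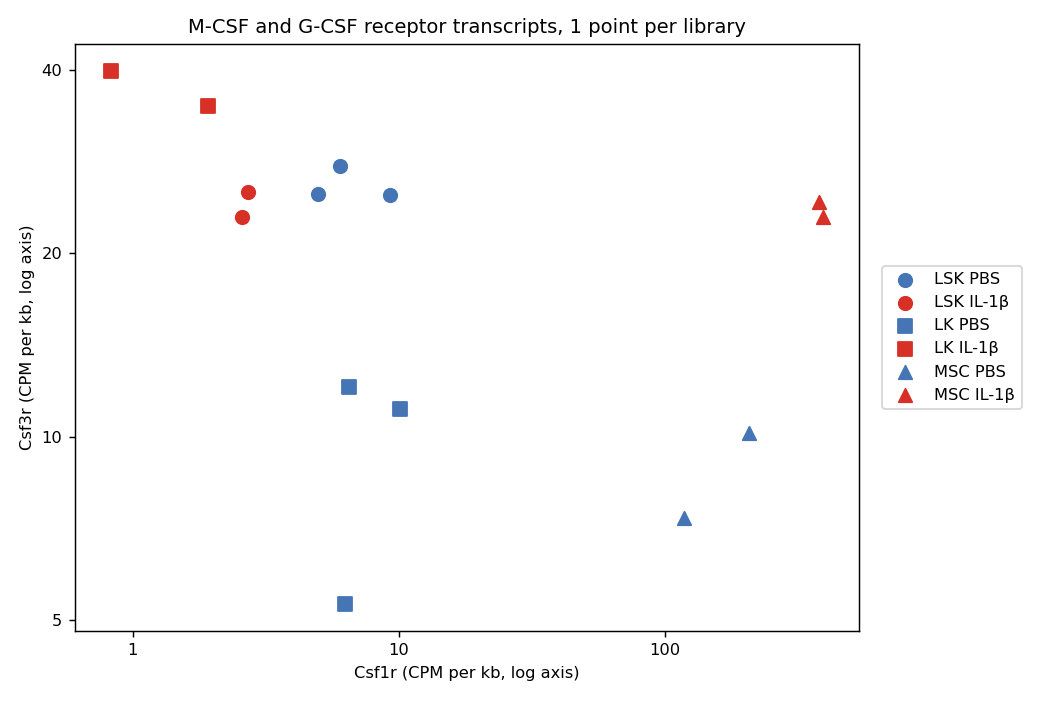
Csf3r against Csf1r in CPM per kb of exon length, both on log axes, with 1 point per library, shapes for populations and colours for treatments. The 2 LK IL-1β libraries lie at the upper left, with 0.826 and 1.92 CPM per kb of Csf1r, and the 4 MSC cultures lie at the right, above 118 CPM per kb.

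Markers of several blood cell types moved with these receptors in the progenitors. In LK cells 6.77% of all genes tested were called higher and 2.57% lower. Of 14 neutrophil granule genes 12 were tested, and 8 were called higher and none lower. The summed level of the 14 was 4420 to 9575 CPM with PBS and 18253 to 21379 CPM with IL-1β. Of 8 mast cell, basophil and eosinophil markers 3 were called higher and none lower, with a sum of 356 to 678 CPM against 2420 to 4157 CPM. Of 6 monocyte markers 3 were called lower and none higher, while their sum overlapped between 242 to 415 CPM and 283 to 325 CPM. Of 10 erythroid markers 3 were called lower and none higher, with a sum of 2751 to 3349 CPM with PBS against 1721 to 1962 CPM with IL-1β. They were Klf1, a transcription factor of red cell development, which fell by 1.13 ± 0.16, the erythroblast membrane protein gene Ermap, by 0.85 ± 0.17, and the carbonic anhydrase gene Car1, by 0.57 ± 0.13. Of 7 megakaryocyte markers 5 were tested, and 1 was called lower and none higher, with overlapping sums. Of 8 lymphoid markers only 2 were tested. The granule gene Nkg7 of cytotoxic lymphocytes was called higher and the lymphoid progenitor gene Dntt lower. In LSK cells 0.320% of all genes tested were called higher and 0.312% lower. There 4 of 12 tested neutrophil granule genes and 2 of 8 mast cell, basophil and eosinophil markers were called higher. Sums of these lists were 2206 to 3186 CPM against 10049 to 11761 CPM and 369 to 433 CPM against 623 to 753 CPM. Of 9 stem cell markers 3 were called lower in LSK cells, with a sum of 1501 to 1943 CPM against 847 to 958 CPM. Macrophage markers summed to 47.3 to 153 CPM over all LSK and LK libraries, with none of the 8 tested in each population called between treatments. The part of these cell types in the receptor changes was not tested.

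Receptors and ligands that share chains or roles with the set were followed from a list. Il3ra, the α chain that pairs with both β chains to bind IL-3, had 26.5, 25.7 and 36.2 CPM in LK cells with PBS and 58.4 and 43.5 CPM with IL-1β, and rose by 0.79 ± 0.20 (adjusted p = 0.0404). Il5ra, the α chain of the IL-5 receptor on eosinophils, had 7, 16 and 7 counts against 31 and 21 counts, or 0.501 to 0.823 CPM against 3.37 to 4.11 CPM, and rose by 2.54 ± 0.52 (adjusted p = 0.0198). Each α chain that can join Csf2rb was called higher in LK cells, where 6.77% of all genes tested were called higher and 2.57% lower. Flt3, the receptor of early multipotent progenitors, fell by 2.39 ± 0.32 and Epor, the erythropoietin receptor, by 0.98 ± 0.21 in LK cells. In LSK cells Flt3 fell by 2.42 ± 0.35 (adjusted p = 0.0207), while Il3ra had a log2 difference of 0.57 ± 0.25 (adjusted p = 0.263). Of the 6 related receptors, 2 were called higher and 2 lower in LK cells, and 0 and 2 in LSK cells. Of all genes tested in LSK cells, 0.320% were called higher and 0.312% lower. In MSC cultures 0 of 3 tested were called higher and 1 lower, against 7.14% and 4.31% of all genes. That gene was Kit, at 3.00 CPM or less, which fell by 2.47 ± 0.56.

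Among related ligands, Il34, which encodes the other ligand of the Csf1r product, was found in MSC cultures only. It had 8.34 and 8.21 CPM with PBS and 6.26 and 7.77 CPM with IL-1β, a log2 difference of -0.25 ± 0.22 that was not called (adjusted p = 0.495). Kitl, the ligand of c-kit, fell by 0.72 ± 0.14 (adjusted p = 0.0322) in MSC cultures, from 23.0 and 26.0 CPM to 14.7 and 14.8 CPM. The other 2 of the 3 related ligands tested in MSC cultures were not called. Il3 had no counts in any library, and Il5 had 2 counts in LSK PBS replicate 3 and none in the other 13 libraries.

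Genes that carry the receptor signal changed in part. In LK cells 4 of 21 were called higher and none lower, against 6.77% of all genes called higher (median log2 fold change 0.31, against -0.03 over all genes). Among them, the phospholipase gene Plcg2 rose by 1.24 ± 0.24, the kinase gene Fes by 1.06 ± 0.25 and Cbl, which encodes a ubiquitin ligase for activated receptors, by 0.75 ± 0.15. In MSC cultures 4 of 21 were also called higher and none lower, against 7.14% of all genes called higher (median 0.32, against 0.00 over all genes). There Jak2 rose by 1.06 ± 0.17 and Stat3 by 0.75 ± 0.11, and Inpp5d, a brake on phosphoinositide signalling, rose by 0.55 ± 0.11. In LSK cells edgeR called 0 of the 21, none of which had an unadjusted p under 0.05 (median -0.34, against -0.06 over all genes).

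Of 11 genes that cytokine signals are known to induce, Socs3 and Cish, which encode feedback inhibitors of JAK-STAT signalling, rose in MSC cultures by 3.04 ± 0.12 (adjusted p = 0.000584) and 2.57 ± 0.52 (adjusted p = 0.0344). Socs3 stood at 15.7 to 18.3 CPM in PBS cultures and at 139 CPM in both IL-1β cultures. The kinase gene Pim1 rose by 0.65 ± 0.14 there. Id1, which encodes a transcription regulator, Myc and the cyclin gene Ccnd2 fell by 1.01 ± 0.20, 0.97 ± 0.15 and 0.78 ± 0.10. So 3 were called higher and 3 lower, against 7.14% and 4.31% of all genes (median 0.30, against 0.00 over all genes). In LK cells Id1 rose by 2.52 ± 0.38 and Pim1 by 0.77 ± 0.13, and Osm, which encodes the cytokine oncostatin M, fell by 0.80 ± 0.20. These 2 called higher and 1 lower stand against 6.77% and 2.57% of all genes (median 0.21, against -0.03 over all genes). In LSK cells Id1 alone was called, higher by 4.60 ± 0.67 (adjusted p = 0.0207), from 0.235 to 1.76 CPM with PBS to 20.3 and 31.0 CPM with IL-1β. Of all genes tested there 0.320% were called higher and 0.312% lower (list median -0.14, against -0.06 over all genes).

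Transcription factors that act on myeloid receptor genes changed in both directions in LK cells, where 5 of 10 were called higher and 2 lower, against 6.77% and 2.57% of all genes (median 0.97, against -0.03 over all genes). Cebpe and Gfi1, factors of granulocyte differentiation, rose by 2.15 ± 0.30 and 2.07 ± 0.28. Cebpb, a factor of emergency granulopoiesis, rose by 1.51 ± 0.14, and Spi1, which encodes PU.1, by 1.35 ± 0.28. Irf8 and Klf4, factors of monocyte development, fell by 2.59 ± 0.38 and 3.25 ± 0.67. Irf8 had 86.0 to 121 CPM in LK cells with PBS and 9.80 and 23.6 CPM with IL-1β. In LSK cells Irf8 was the only factor called, lower by 2.48 ± 0.35 (adjusted p = 0.0207), with 95.9 to 199 CPM against 25.3 and 29.3 CPM. In MSC cultures Cebpb rose by 1.03 ± 0.10 and Etv6, which encodes an ETS-family repressor, by 0.50 ± 0.10, among 8 factors tested.

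**Figure D4:**
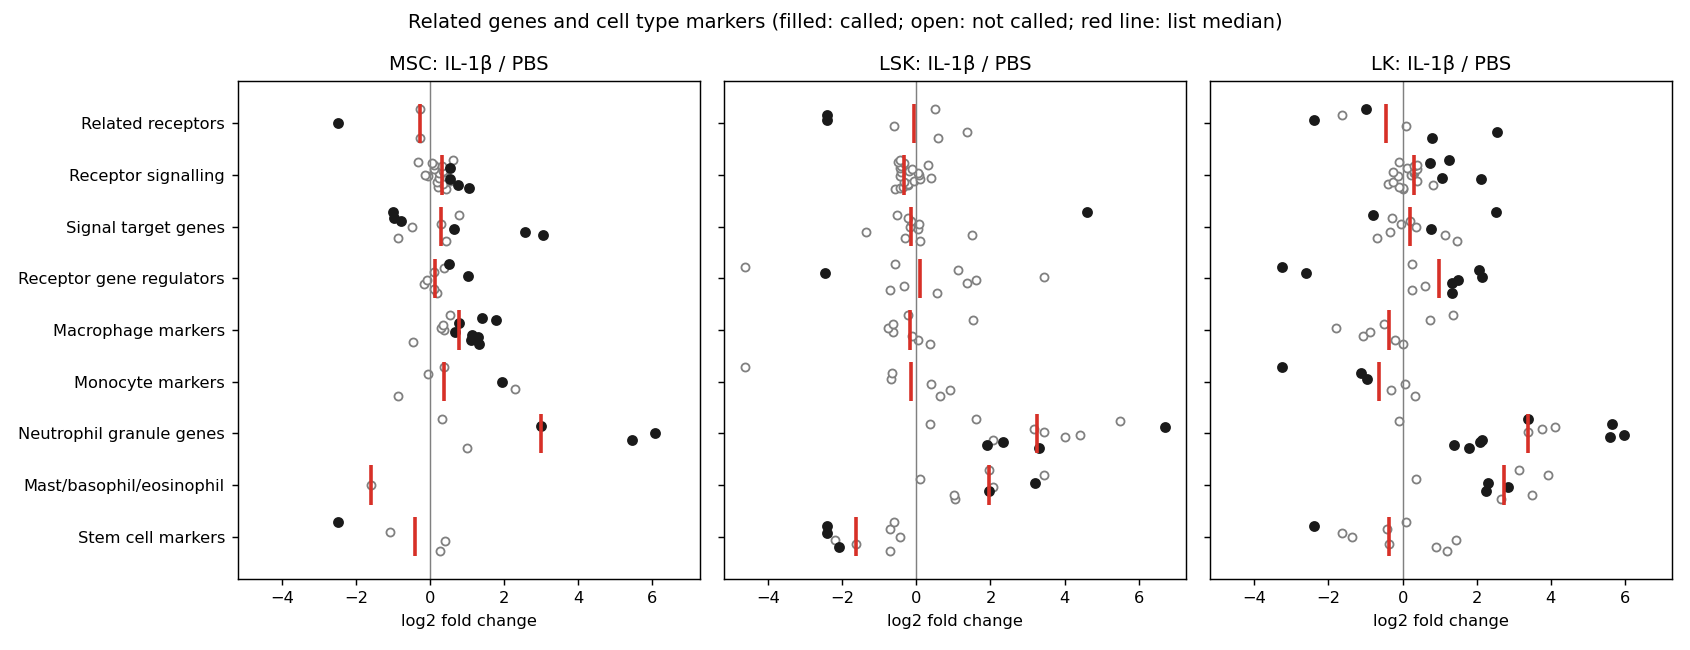
Log2 fold changes of IL-1β over PBS in MSC cultures, LSK and LK cells for genes of 9 lists (1 point per tested gene, filled where called, red line at the list median). In LK cells 5 receptor gene regulators are filled on the right and 2 on the left, and neutrophil granule genes lie mostly to the right of 0.

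The genes whose levels ran most closely with each member were found by Pearson correlation of log2 CPM, over the 10 LSK and LK libraries for receptors and over all 14 for Csf1. For Csf1r the closest of 13819 genes was Irf8 (r = 0.94), ahead of Dglucy and Sdc1 (both r = 0.93). For Csf3r they were Plcb2, Tbkbp1 and Scamp1 (r = 0.97 to 0.96), for Csf2rb Pmaip1, Nxn and Pgk1 (r = 0.98 to 0.96), for Csf2rb2 Soat1, Ppp3ca and Snx18 (r = 0.97 for each), and for Csf2ra Baiap3, A430072P03Rik and Card9 (r = 0.95 to 0.94). For Csf1 they were Dhrs9, Fst and Olfml2b (r = 0.99 to 0.98). These libraries share treatment, depth and population, so the values describe the libraries and carry no p.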

How the data were processed

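Bulk RNA-seq was analysed for 5 LSK, 5 LK and 4 MSC libraries, grouped by the sample labels. The authors deposited raw counts, 1 value per gene and library, in units of read pairs. Per the submitters' processing notes and the file headers, the authors trimmed reads with fastp 0.20.0, aligned them to GRCm38 with HISAT2 2.0.1, used SAMtools 1.10, and counted with featureCounts 2.0.2 on Ensembl release 100 in reverse-stranded mode. The methods also name GenomicAlignments. Under such counting, pairs matching several places are lost, which lowers near-identical genes. A further IL-1β MSC library named in a header was not analysed here. The tables held 0 sample columns that went unused. Symbols from the reference table matched 55141 of 55487 identifiers.

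Tests used edgeR 4.0.16 under R 4.3.3, with low counts removed by filterByExpr, TMM factors, a robust glmQLFit and glmQLFTest, within each population, between LSK and LK cells under PBS, and as an interaction over 10 libraries. Adjustment of p-values followed Benjamini and Hochberg over all genes tested. The SE is the log2 fold change divided by the square root of F. CPM were scaled with TMM factors computed within each population, and CPM per kb divides by the exonic length in the files. Depth ran from 4393233 to 30871055 read pairs, and floors of 3 counts cover counting error only. Correlations used a prior count of 2. The tests were checked on simulated data with 200 changed genes. Alternatives were DESeq2 1.42.0, limma-voom (limma 3.58.1), size factors of DESeq2 or upper-quartile factors in edgeR, no filter, a minimum of 10 reads in 2 libraries, no fold threshold, a block for the replicate number, LSK and LK libraries fitted together, and leaving out single libraries. The plots were made with matplotlib 3.10.9.

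Deviations of LSK and LK samples with the same number had correlations of 0.211, 0.128 and 0.472 with PBS and of 0.100 with IL-1β. The labels do not say whether such samples share animals, and these values do not settle it. The reported tests treated the libraries as separate, and a block for the number was only an alternative. Between treatments the animals differed, correlations ran from -0.102 to 0.126, and the numbers were not taken as pairs.

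The members and all lists were chosen with earlier results of these data known. The genes named are the 8 members, from each list the called genes of each IL-1β comparison whose libraries did not overlap (at most 4 per list and direction, largest first), the partners Il34, Il3, Il3ra, Il5 and Il5ra, and the 3 genes most correlated with each member. Lepr, Lum, Nt5e, Col1a1, Col1a2 and Cd68 were named, and sums without Lyz2 added, after the data were seen. Some genes that the rule would name are not reported here.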

Additional observations from a re-analysis of the deposited data

How the results depend on the processing

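In LK cells all 6 genes tested were called under DESeq2 (1536 of all genes), limma-voom (986) and both other scalings (1219 and 1209). They were also called with a filter of at least 10 reads (1196) and in the joint fit (489). Csf3r alone was lost with no filter (adjusted p = 0.0555), where 1844 of all genes were called, and with the replicate block (adjusted p = 0.157), where 2331 were. In LSK cells the count of 0 became 3 with DESeq2, where 905 of all genes were called, or with no filter, where 869 were. It became 2 with the replicate block (702 of all genes) or the joint fit of LSK and LK libraries (1228). In the interaction the count of 0 became 2 with DESeq2 (332 of all genes) and 1 with no filter (398). Leaving out each library in turn gave 1 to 3 called genes between LSK and LK cells under PBS. In the other comparisons this can leave 1 library in a group, so counts of members are not given for them. Leaving out a library changed the sign of 3 log2 fold changes that were not called: Csf2ra in MSC cultures (-0.26 to 0.042), and between LSK and LK cells under PBS Csf2ra (-0.028 to 0.50) and Csf1r (-0.55 to 0.063). The replicate block was used between treatments although the numbers were not pairs, and it changed no call between LSK and LK cells under PBS (3 called) or in the interaction (0 called). No paired analysis was made in MSC cultures because the treatments share only replicate number 2.

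Over all genes, the calls of the tests reported ran from 1506 to 2354 under other settings in MSC cultures (1515 as reported), from 21 to 1228 in LSK cells (83), from 489 to 2331 in LK cells (1199), from 3972 to 4625 between LSK and LK cells (3980) and from 1 to 398 in the interaction (4). With a library left out they ran from 38 to 3819, 3 to 480, 66 to 2409, 2145 to 4965 and 0 to 336, in the same order. The causes were not tested. Groups of 2 or 3 libraries and the shallower IL-1β libraries of LSK and LK cells limit the precision, and an all-zero count bounds Csf2 and Csf3 only down to the floors given.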
